A study of Ovis aries with 12 samples.

Results

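The genes described here are 9 transcription factors of the immediate early response: FOS, FOSB, FOSL1, FOSL2, JUN, JUNB, JUND, ATF3 and EGR1. They were taken by symbol from the 21257 genes of the expression table, a selection rule that uses no measured level, although earlier results of these data were known when the genes were proposed. All 9 were found there and passed the filter on low counts that left 13319 genes for testing. The RNA came from back muscle (longissimus dorsi) of 5-month-old Tan sheep, a breed of Ovis aries. Animals were fed a basal diet alone (control) or the basal diet with succinate, an intermediate of the TCA cycle, at 0.5% (SUC1), 1% (SUC2) or 2% (SUC3). The labels describe 9 sheep per diet in individual pens, 10 days of adaptation and a 60-day trial, and 3 libraries per diet are in the table, 12 in all. No genetic change, drug or other treatment is named, and all groups shared the basal diet and housing. Sex, the way the muscle was taken, the time from slaughter to sampling, and whether a library holds 1 sheep or a pool were not given in the sources used here. P-values therefore reflect only how much these libraries vary, and some of that variation may be technical.

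The FOS and JUN proteins are leucine-zipper factors that pair with each other to form the dimers known as AP-1, which bind short DNA elements in the promoters and enhancers of many genes. JUN proteins can pair among themselves, whereas FOS proteins need a JUN partner. In many cell types most of these genes belong to the immediate early class: their transcription rises within minutes of growth factors, stretch, calcium entry or stress, from factors already present in the cell, and their transcripts are short-lived. ATF3 is a related leucine-zipper factor induced by stress, and EGR1 is a zinc-finger factor induced by many of the same stimuli. In skeletal muscle such genes respond to contraction, stretch and injury, so their levels can move with the handling of an animal or of the tissue as well as with its diet.

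Levels are given as CPM, read counts relative to the TMM-scaled size of the library, and comparisons between genes are given as the deposited FPKM, which is also scaled for gene length. Library totals were 15742428 to 18564057 counts, so the floor of 3 counts lay at 0.157 to 0.207 CPM, and every member had more than 3 counts in every library. The tissue markers were those of muscle: 10 fibre genes, among them ACTA1, CKM, MYH1, MYH7 and MB, summed to 145579 to 235362 CPM per library, and none of the 10 was at 0 in any diet. Mitochondrially encoded genes took 7.48% to 15.6% of counts. On the first principal component of all genes tested SUC2 replicate 3 was highest (51.6, the next at 20.7). The control libraries were lowest there (-44.9 to -27.3), with control replicate 2 at the extreme. On the second component SUC2 replicate 2 (55.1) and SUC3 replicate 1 (-52.1) stood apart from the other 10 libraries (-14.8 to 9.47). These are whole-tissue libraries, in which more or fewer cells of a type and more or less RNA per cell cannot be told apart.

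In the table FOS lay on chromosome 7 from 84571490 to 84574889, FOSL1 on chromosome 21 from 40441166 to 40449868, FOSL2 on chromosome 3 from 35344992 to 35367947 and FOSB on chromosome 14 from 52861368 to 52868302. JUN lay on chromosome 1 from 33493970 to 33496663, ATF3 on chromosome 12 from 70399984 to 70412879, and JUND (4714389 to 4716264), JUNB (11038097 to 11039921) and EGR1 (47499104 to 47501425) all on chromosome 5. The table does not name its build, and the chromosome numbers come from matching its gene identifiers to the ARS-UI_Ramb_v3.0 gene table, in which 6 of the 9 genes had the same start and end.

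Per length, JUN was the most abundant of the 9 genes in every diet, with a mean of 65.4 ± 17.3 FPKM in control (SD, n = 3), followed by JUND at 31.9 ± 4.82 FPKM. Their ranges did not overlap in control or SUC1 and overlapped in SUC2 and SUC3. In control FOS came next at 14.8 ± 13.4 FPKM, then FOSL2 at 6.76 ± 2.19, JUNB at 5.59 ± 2.22, EGR1 at 4.26 ± 4.74 and ATF3 at 4.03 ± 2.83 FPKM, and no neighbours among these 5 differed beyond their spread. FOSB at 0.454 ± 0.557 FPKM and FOSL1 at 0.113 ± 0.0434 FPKM were the least abundant, and their ranges overlapped, as did those of JUND and FOS. ATF3 was the seventh in this order in control and the third in each succinate diet, with means of 34.3 ± 22.3 FPKM in SUC1, 25.4 ± 6.64 in SUC2 and 20.2 ± 21.8 in SUC3. In each succinate diet its range overlapped with that of the next gene below it, FOS in SUC1 and SUC3 and JUNB in SUC2.

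**Figure D1:**
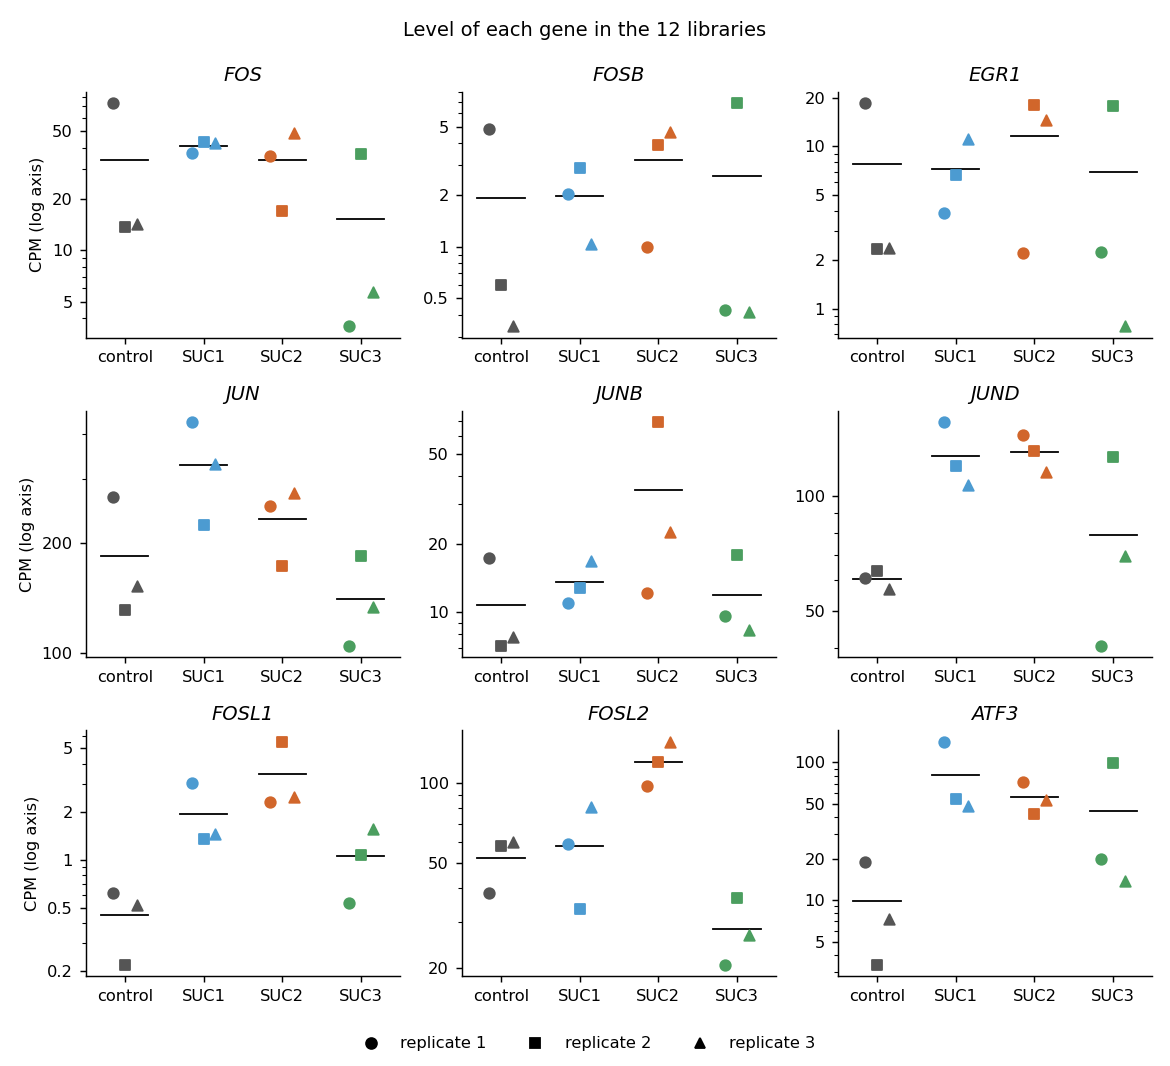
Level of each of the 9 genes in CPM (y axis, log scale, own range per panel) by diet (x axis), with 1 point per library, the marker giving the replicate number and the line the mean of 3 libraries. FOS, FOSB and EGR1 spread widely within control and SUC3, where single libraries lie far above the other 2, while FOSL1, FOSL2, JUND and ATF3 lie above control without overlap in SUC2: the 3 SUC2 libraries of FOSL2 (97.0 to 143 CPM) lie above all other libraries.

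The FOS family, whose members bind DNA only with a partner such as a JUN protein, held the 1 gene that passed by edgeR. FOSL1, which encodes FRA1, a late-induced FOS protein that lacks the strong activation domain of FOS, was at 0.621, 0.218 and 0.516 CPM in the control libraries. It was at 3.004, 1.35 and 1.45 CPM in SUC1, at 2.30, 5.496 and 2.47 CPM in SUC2 and at 0.534, 1.06 and 1.56 CPM in SUC3. All SUC1 and SUC2 libraries lay above all control libraries, and SUC3 overlapped with control. The control counts were 4 to 9 reads per library, so the size of the difference is imprecise. These counts were too low to pass the filter, so FOSL1 entered testing only through succinate libraries, where it was higher. FOSL1 rose in SUC2 by 2.92 ± 0.58 on the log2 scale (SE), a 7.57-fold difference (edgeR quasi-likelihood test, adjusted p = 0.0332; higher in 3 of 3 libraries). The log2 difference was 2.10 ± 0.58 in SUC1 (adjusted p = 0.365) and 1.22 ± 0.59 in SUC3 (adjusted p = 0.420), neither of which passed. The SUC2 call ended without control replicate 2 (adjusted p = 0.144), control replicate 3 (0.116), SUC2 replicate 2 (0.0619) or SUC2 replicate 3 (0.0966). Adjusted p over all alternatives ran from 0.000155 to 0.144, and by edgeR without a filter it was 0.0194. Without SUC2 replicate 2 and SUC3 replicate 1, which stood apart on the second principal component, the log2 difference was 2.40 (adjusted p = 0.0541).

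FOSL2, which encodes FRA2, a relative of FRA1 with a higher level per length in this muscle, had opposite signs in SUC2 and SUC3 without passing in either by edgeR. It was at 38.3, 57.7 and 59.9 CPM in control and at 58.9, 33.6 and 81.0 CPM in SUC1. It was at 97.0, 119 and 143 CPM in SUC2 and at 20.6, 36.7 and 26.8 CPM in SUC3. The SUC2 libraries lay above, and the SUC3 libraries below, every control library. The log2 difference from control was 0.15 ± 0.31 in SUC1 (adjusted p = 0.973), 1.20 ± 0.31 in SUC2 (adjusted p = 0.0711), while that in SUC3 was -0.89 ± 0.31 (adjusted p = 0.274). Between SUC3 and SUC2 FOSL2 had the third smallest p of the 13319 genes, with a log2 difference of -2.09 ± 0.32 that just missed the threshold (adjusted p = 0.0719, with 3.44e-07 to 0.378 over all alternatives). It was called by DESeq2 (adjusted p = 3.44e-07) and when only these diets were fitted (0.0461). The SUC2 difference from control was also called by DESeq2 (adjusted p = 0.00739) and in the fit of SUC2 and control alone (0.0488).

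FOS, the prototype immediate early gene, varied more within diets than between them. It was at 73.4, 13.7 and 14.2 CPM in control and at 37.1, 43.0 and 42.6 CPM in SUC1. It was at 36.0, 17.1 and 49.0 CPM in SUC2 and at 3.58, 36.9 and 5.69 CPM in SUC3. Control replicate 1 was the highest of the 12 libraries and SUC3 replicate 1 the lowest, a 20.5-fold range, and each succinate diet overlapped with control. The log2 difference was 0.28 ± 0.77 in SUC1 (adjusted p = 0.979), 0.01 ± 0.77 in SUC2 (adjusted p = 0.994), while that in SUC3 was -1.13 ± 0.79 (adjusted p = 0.588). These differences depended on single libraries. Without control replicate 1 they were 1.55 in SUC1, 1.29 in SUC2 and 0.14 in SUC3, still without a call. Without SUC3 replicate 2 the SUC3 difference was -2.87, also without a call.

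FOSB, the FOS relative best known for its stable truncated form in the brain, was scarce and as variable. It was at 4.83, 0.599 and 0.344 CPM in control, at 2.04, 2.89 and 1.03 CPM in SUC1, at 0.993, 3.90 and 4.69 CPM in SUC2, and at 0.427, 6.89 and 0.419 CPM in SUC3. Control replicate 1 and SUC3 replicate 2 stood far above the other 2 libraries of their diets. No diet differed from control beyond this spread, with log2 differences of 0.08 ± 1.08, 0.75 ± 1.07 and 0.45 ± 1.07 in SUC1, SUC2 and SUC3 (adjusted p = 0.994, 0.765 and 0.896). The SUC3 difference was -2.14 without SUC3 replicate 2.

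Among the JUN family, the obligate side of AP-1, JUND separated SUC1 and SUC2 from control without overlap. JUND encodes the JUN protein that is expressed in resting cells and is only weakly inducible. It was at 60.8, 63.4 and 57.0 CPM in control, at 156, 119 and 107 CPM in SUC1, at 144, 131 and 116 CPM in SUC2, and at 40.4, 126 and 69.3 CPM in SUC3. The 3 control libraries lay within a 1.11-fold range, below every SUC1 and SUC2 library, and SUC3 spread over a 3.13-fold range on both sides of control. The log2 difference was 1.08 ± 0.31 in SUC1 (adjusted p = 0.383), 1.11 ± 0.31 in SUC2 (adjusted p = 0.0883), while that in SUC3 was 0.38 ± 0.31 (adjusted p = 0.647). None passed, although in SUC2 DESeq2 (adjusted p = 0.0178) and the fit of SUC2 and control alone (0.0280) called it, as did the fits without SUC3 replicate 1 (0.0405) or SUC3 replicate 2 (0.0250).

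JUN itself was highest in SUC1, at 430, 224 and 330 CPM, against 268, 131 and 153 CPM in control. It was at 253, 173 and 275 CPM in SUC2 and at 105, 184 and 134 CPM in SUC3. Each succinate diet overlapped with control, while all SUC3 libraries lay below all SUC1 libraries. The log2 difference from control was 0.83 ± 0.32 in SUC1 (adjusted p = 0.542), 0.34 ± 0.32 in SUC2 (adjusted p = 0.627), while that in SUC3 was -0.38 ± 0.32 (adjusted p = 0.654). Between SUC3 and SUC1 it was -1.22 ± 0.32 (adjusted p = 0.411 by edgeR and 0.0451 by DESeq2, with up to 0.902 over all alternatives).

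JUNB, the JUN protein that often restrains the activity of JUN, was set apart by a single library. It was at 17.4, 7.13 and 7.80 CPM in control, at 11.1, 12.8 and 16.8 CPM in SUC1, at 12.2, 69.1 and 22.7 CPM in SUC2, and at 9.62, 17.9 and 8.38 CPM in SUC3. SUC2 replicate 2, which also stood apart on the second principal component of all genes, was far above the other libraries. The log2 difference was 1.69 ± 0.55 in SUC2 (adjusted p = 0.125) and 0.70 without SUC2 replicate 2, against 0.34 ± 0.54 in SUC1 and 0.16 ± 0.54 in SUC3 (adjusted p = 0.960 and 0.933). DESeq2 called the SUC2 difference (adjusted p = 0.0267).

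ATF3, a stress-induced factor that can pair with JUN proteins and often represses transcription, had the largest log2 differences of the 9 genes in SUC1 and SUC3. It was at 18.9, 3.38 and 7.34 CPM in control, at 141, 54.1 and 47.8 CPM in SUC1, at 72.0, 42.3 and 52.8 CPM in SUC2, and at 19.8, 99.4 and 13.8 CPM in SUC3. All SUC1 and SUC2 libraries lay above all control libraries, whereas in SUC3 replicates 1 and 3 were near control replicate 1. The log2 difference was 3.05 ± 0.77 in SUC1 (adjusted p = 0.349), 2.51 ± 0.75 in SUC2 (adjusted p = 0.104), while that in SUC3 was 2.18 ± 0.74 (adjusted p = 0.267). None passed, and the range within SUC3 was 7.22-fold. The SUC3 difference was 0.77 without SUC3 replicate 2, and the SUC2 difference was called when that library was left out of the fit (adjusted p = 0.0380).

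EGR1, the zinc-finger factor, had the widest spread within diets. It was at 18.55, 2.34 and 2.35 CPM in control, at 3.91, 6.64 and 11.2 CPM in SUC1, at 2.20, 17.9 and 14.6 CPM in SUC2, and at 2.24, 17.8 and 0.778 CPM in SUC3. High and low libraries occurred in each diet, and all diets overlapped. The log2 differences from control were -0.09 ± 1.03 in SUC1, 0.59 ± 1.03 in SUC2 and -0.15 ± 1.03 in SUC3 (adjusted p = 0.994, 0.818 and 0.968), and without control replicate 1 they were 1.62, 2.29 and 1.56.

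**Figure D2:**
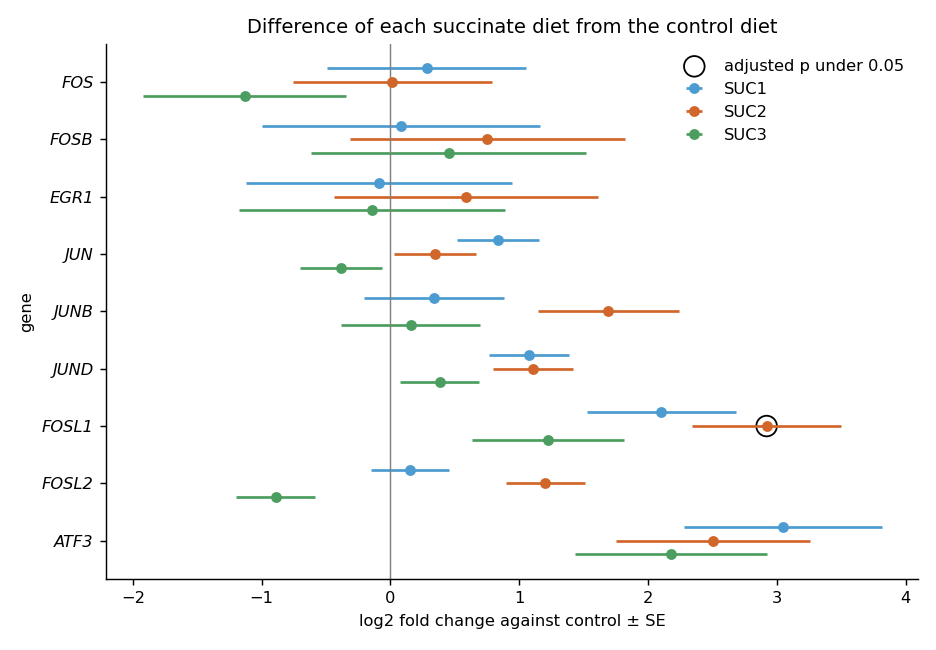
Log2 fold change against control (x axis) with its standard error for each gene (y axis) in SUC1, SUC2 and SUC3, from the fit of all 12 libraries. The ring marks FOSL1 in SUC2 (2.92 ± 0.58), the only one of these 27 differences with an adjusted p under 0.05; bars of FOS, FOSB and EGR1 reach across 0 in each diet except for FOS in SUC3.

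Counted over the 9 genes, SUC1 against control, the lowest dose, gave no call by edgeR, DESeq2 or limma-trend, and 4 genes at an unadjusted p under 0.05 (JUN, JUND, FOSL1 and ATF3). Over all genes tested edgeR called 0% and gave 7.61% such a p, and DESeq2 called 70 genes. Of the 9 log2 differences 8 were positive, with a median of 0.34 against -0.01 for all genes tested. FOSL1, JUND and ATF3 were higher without overlap, which held for 7.4% of all genes, and 0 members were lower without overlap, against 6.81%.

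In SUC2 against control 1 of the 9 genes was called, against 1.43% of all genes tested, and the call was in the higher direction, which held for 0.773% of all genes. The called gene, FOSL1, entered testing only through succinate libraries, where it was higher. That bears on its call and on each of its comparisons without overlap. All 9 log2 differences were positive, with a median of 1.11 against 0.00 for all genes. FOSL1, FOSL2, JUND and ATF3 were higher without overlap, which held for 11.5% of all genes, and 0 members were lower without overlap, against 10.6%. DESeq2 called 4 members, FOSL1, FOSL2, JUNB and JUND, among 841 genes, and the fit of SUC2 and control alone called 3 among 149. Without SUC3 replicate 2 the count was 3 among 332 genes, and without SUC2 replicate 2 it was 0 among 221. Leaving out SUC2 replicate 3, or either of control replicates 2 and 3, left no gene called at all, so the 0 there is not particular to the members.

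In SUC3 against control, the highest dose, none of the 9 passed by edgeR, which called 0.00751% of all genes, by DESeq2, which called 241 genes, or by limma-trend, which called 0 genes. FOSL2 and ATF3 had an unadjusted p under 0.05, as did 12.4% of all genes. The signs were mixed, 5 positive and 4 negative, with a median of 0.16 against -0.01 for all genes, and FOSL2 was the 1 member lower without overlap, against 8.88% of all genes, while 0 were higher without overlap, against 9.15%. The 3 comparisons share the control libraries, so their values are not independent of each other.

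The joint test of any difference among the 4 diets called none of the 9 genes by edgeR, against 0.0225% of all genes. The 6 members other than FOS, FOSB and EGR1 had an unadjusted p under 0.05, against 14.7% of all genes, and FOSL2 had the smallest (F = 15.9, adjusted p = 0.0703). DESeq2 called 5 members in the joint test, FOSL1, FOSL2, JUN, JUNB and JUND, among 798 genes. Without SUC3 replicate 2 edgeR called FOSL2 and JUND among 85 genes. The slope over succinate percent called 0 members by edgeR and by DESeq2, and 0 had an unadjusted p under 0.05 by edgeR. Over all genes edgeR called 0.00751% and DESeq2 121 genes. Slopes ran from -0.64 ± 0.41 per percent for FOS to 0.36 ± 0.57 for ATF3.

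Between the succinate diets edgeR called no member. SUC2 against SUC1 had 2 members at an unadjusted p under 0.05, FOSL2 and JUNB, with 0% of all genes called and 8.57% at such a p. FOSL2 was at 1.05 ± 0.31 on the log2 scale (adjusted p = 0.429) and was the 1 member higher without overlap, against 7.23% of all genes, with 0 lower, against 6.43%. SUC3 against SUC1 had 3, FOSL2, JUN and JUND, with 0% of all genes called and 7.31% at such a p, and FOS and JUN were lower without overlap, as were 6.06% of all genes, while 0 were higher, against 5.97%. SUC3 against SUC2 had 5, FOSL1, FOSL2, JUN, JUNB and JUND, with 0.015% of all genes called and 11.5% at such a p. There all 9 log2 differences were negative, with a median of -0.73 against 0.00 for all genes, and FOSL1 (-1.70 ± 0.53, adjusted p = 0.252) and FOSL2 were lower without overlap, as were 7.46% of all genes, while 0 were higher, against 7%.

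**Figure D3:**
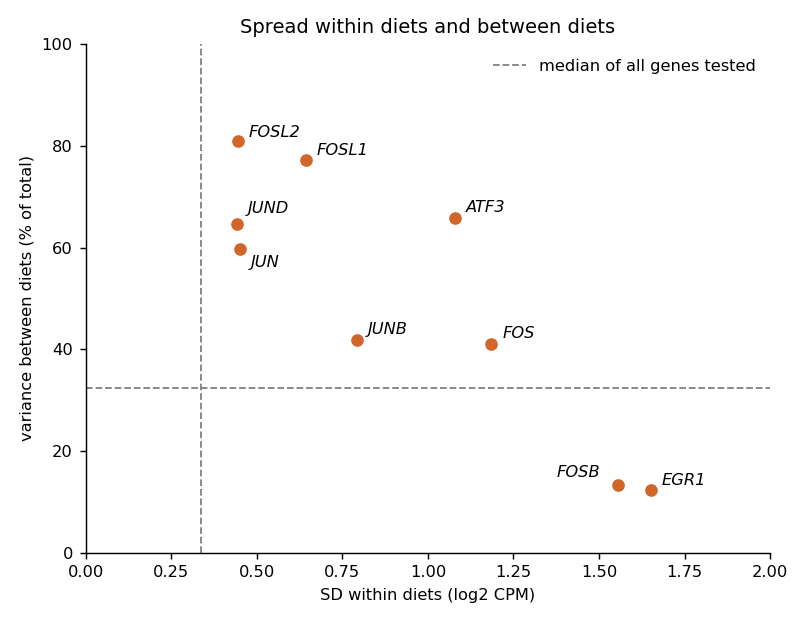
Standard deviation within diets on the log2 CPM scale (x axis) against the share of total variance that lay between diets (y axis), 1 point per gene, with dashed lines at the medians of the 13319 genes tested (0.337 and 32.5%). FOSB and EGR1 lie at the far right with 13.4% and 12.3% between diets, and FOSL2 and FOSL1 at the top with 81.0% and 77.2%.

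The 9 genes differed in where their variation lay. On log2 CPM, 81.0% of the variance of FOSL2 and 77.2% of that of FOSL1 lay between diets, against a median of 32.5% over all genes tested. The share was 65.9% for ATF3, 64.7% for JUND and 59.8% for JUN. It was 41.9% for JUNB and 41.1% for FOS, and fell below the median of all genes for FOSB (13.4%) and EGR1 (12.3%). The standard deviation within diets was 1.65 for EGR1, 1.56 for FOSB, 1.19 for FOS and 1.08 for ATF3 on the log2 scale, each above that of about 97.5% or more of all genes, while JUND (0.44), FOSL2 (0.44) and JUN (0.45) lay closer to the median of 0.34.

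The libraries that deviated were shared between the most variable genes. Control replicate 1 lay above the mean of its diet by 1.59 for FOS, 2.07 for FOSB, 1.95 for EGR1 and 1.26 for ATF3 on the log2 scale. SUC3 replicate 2 lay above the mean of its diet by 2.00, 2.46, 2.41 and 1.72 for the same genes. SUC2 replicate 1 lay below the mean of its diet for FOSB (-1.32), EGR1 (-1.88) and JUNB (-1.13) but not for FOS (0.21). For JUNB that mean was raised by SUC2 replicate 2 (69.1 CPM), and SUC2 replicate 1 (12.2 CPM) lay within the range of control. In the 12 libraries, as deviations from the mean of each diet, FOSB and EGR1 had a Pearson r of 0.87, JUNB and EGR1 of 0.83 and FOS and FOSB of 0.82. It was 0.80 for FOS and ATF3, 0.79 for JUN and ATF3 and 0.78 for FOS and JUN. FOSL2 had r from 0.01 to 0.34 over its 8 pairs. These values are descriptions of 12 libraries that share depth and scaling across genes. At the library level, control replicate 1 also had the lowest TMM factor (0.857) and SUC3 replicate 2 one of 1.03, and their mitochondrial shares were 12.4% and 9.48%; the part of RNA composition or quality in these levels was not tested.

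**Figure D4:**
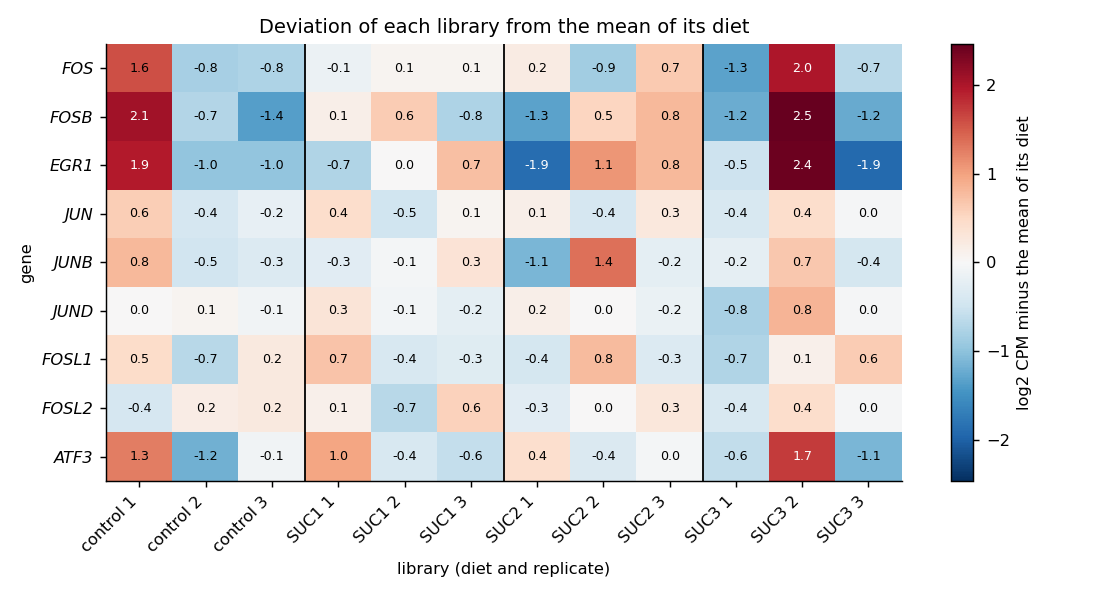
Deviation of each library's log2 CPM from the mean of its diet (colour and printed value) for the 9 genes (rows) in the 12 libraries (columns, by diet and replicate). Control replicate 1 and SUC3 replicate 2 are high for FOS, FOSB, EGR1 and ATF3, with deviations of 1.26 to 2.46. JUN, JUND, FOSL1 and FOSL2 deviate by at most 0.84 in any library.

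Genes outside the 9 whose log2 CPM followed a member most closely over the 12 libraries were sought among 10973 genes with a symbol and a mean of at least 1 CPM. Since they were picked by this correlation, a pattern over libraries and diets like that of the member follows largely from the selection. For FOS these were RLF (r = 0.87), CHCHD7 (0.85), ADNP2 (0.85), DUSP1 (0.84) and FARSA (0.84). DUSP1, a phosphatase that switches off MAP kinases and is itself an immediate early gene, was at 184 CPM in control replicate 1 against 29.0 and 41.3 CPM in the other control libraries. In SUC3 it was at 105 CPM in replicate 2 against 41.6 and 44.2 CPM, so DUSP1 was high in the same libraries as FOS. For ATF3 the genes were XIRP1 (r = 0.91), USP2 (0.91), ZNF385B (0.90), LRRN2 (0.90) and KLF15 (0.90). XIRP1, an actin-binding protein of muscle that is induced by fibre damage, was at 1086, 116 and 132 CPM in control, 1765 to 2150 CPM in SUC1, 2028 to 2808 CPM in SUC2 and 608, 2132 and 554 CPM in SUC3. Its SUC1 and SUC2 libraries lay above all control libraries, as for ATF3. For FOSL1 they were LYSMD3 (r = 0.94), CMTM6 (0.92), EIF4A1 (0.89), LRP12 (0.88) and CTNNB1 (0.88), of which EIF4A1, a translation initiation helicase, rose in SUC2 from 30.5 ± 4.47 to 76.2 ± 17.8 CPM (adjusted p = 0.0213).

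Counts in the gene lists that follow are by edgeR, which called 0%, 1.43% and 0.00751% of all genes in SUC1, SUC2 and SUC3 and gave 7.61%, 17.9% and 12.4% of them an unadjusted p under 0.05. Of 19 tested leucine-zipper factors related to AP-1, 1 passed in SUC2 and 0 in SUC1 or SUC3, and 6, 7 and 2 had such a p in SUC1, SUC2 and SUC3. CREM, a cAMP-responsive factor, rose in SUC2 from 98.1 ± 31.7 to 211 ± 21.7 CPM (log2 1.11 ± 0.23, adjusted p = 0.0382); its log2 difference was also 1.11 ± 0.23 in SUC1, where it did not pass (adjusted p = 0.281). CEBPD and CEBPB, which take part in the acute-phase response, were at 1.56 ± 0.39 (adjusted p = 0.0662) and 0.83 ± 0.22 (adjusted p = 0.0790). The median of the 19 log2 differences was 0.36 in SUC1, 0.44 in SUC2 and 0.18 in SUC3, against medians between -0.01 and 0.00 for all genes tested.

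Of 36 other immediate early genes tested, 1 passed in SUC2, against 1.43% of all genes, and 0 in SUC1 or SUC3. An unadjusted p under 0.05 was found for 6, 16 and 11 of them in SUC1, SUC2 and SUC3, against 7.61%, 17.9% and 12.4% of all genes. SIK1, a kinase induced by cAMP and calcium, rose in SUC2 from 15.8 ± 2.14 to 89.3 ± 19.9 CPM (log2 2.498 ± 0.41, adjusted p = 0.0213). NR4A3, an orphan nuclear receptor induced by exercise, had 8, 10 and 13 counts in control, 119, 64 and 254 in SUC1, 74, 173 and 971 in SUC2 and 1947, 6540 and 23 in SUC3. Every succinate library of NR4A3 exceeded every control library. Taken diet by diet, 7.4%, 11.5% and 9.15% of all genes were higher without overlap in SUC1, SUC2 and SUC3. By its control libraries alone NR4A3 would not have passed the filter, so it needed succinate libraries, where it was higher, to enter testing. It did not pass by edgeR (adjusted p = 0.567, 0.102 and 0.139 in SUC1, SUC2 and SUC3). In SUC2 it was called by DESeq2 (adjusted p = 0.00559), in the fit of SUC2 and control alone (0.0447) and without SUC3 replicate 3 (0.0448). IER3 was at -1.32 ± 0.40 and IER5 at 0.80 ± 0.29 in SUC2 (adjusted p = 0.107 and 0.169). The list's median log2 difference was 0.36 in SUC1, 0.61 in SUC2 and 0.06 in SUC3.

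Upstream of these genes lie the MAP kinases and the serum response factor with its partners, of which 30 were tested and 1 passed. RPS6KA3, a kinase activated by ERK, rose in SUC2 from 310 ± 77.2 to 766 ± 163 CPM (log2 1.31 ± 0.26, adjusted p = 0.0332). MAPK14, the p38 alpha kinase, was at -0.57 ± 0.17 and MAPK9, the JNK2 kinase that phosphorylates JUN, at -0.73 ± 0.22 in SUC2 (adjusted p = 0.102 and 0.108), and MAP2K3, which activates p38, at 1.02 ± 0.28 (adjusted p = 0.0793). The list's median log2 difference was 0.04 in SUC1, 0.07 in SUC2 and 0.08 in SUC3. No gene of the list passed in SUC1 or SUC3, and 3, 7 and 8 had an unadjusted p under 0.05 in SUC1, SUC2 and SUC3.

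Among genes described as AP-1 targets, mostly from human and mouse cells, 18 were tested and PTX3 passed in SUC2. PTX3, a soluble pattern-recognition protein, rose from 0.547 ± 0.130 to 7.93 ± 5.93 CPM (log2 3.85 ± 0.69, adjusted p = 0.0265). Its control counts were 8 to 10 per library, so the size of the difference is imprecise. By its control libraries alone PTX3 would not have passed the filter. It needed succinate libraries, where its mean was higher, to enter testing. ODC1 and VIM were at 1.44 ± 0.37 and 0.63 ± 0.19 in SUC2 (adjusted p = 0.0700 and 0.110). The list's median was 0.33 in SUC1, 0.54 in SUC2 and 0.66 in SUC3, with 0 calls in SUC1 and SUC3 and 1, 6 and 6 genes at an unadjusted p under 0.05 in SUC1, SUC2 and SUC3.

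Heat shock and chaperone genes, which stress can also induce, had 4 of 29 called in SUC2, all higher, against 0.773% of all genes called higher. In SUC1 and SUC3 0 of the 29 were called. An unadjusted p under 0.05 was found for 2, 15 and 7 of them in SUC1, SUC2 and SUC3, against 7.61%, 17.9% and 12.4% of all genes. HSPA5 rose from 77.6 ± 2.45 to 183 ± 36.4 CPM (adjusted p = 0.0213), and BAG2, DNAJA1 and HSPA6 rose by 2.49 ± 0.44, 1.64 ± 0.36 and 3.04 ± 0.62 on the log2 scale (adjusted p = 0.0265, 0.0423 and 0.0351). The HSPA6 value is uncertain, since reads can be shared with close paralogs and its control counts were 8 to 17 per library. By its control libraries alone HSPA6 would not have passed the filter. It needed succinate libraries, where its mean was higher, to enter testing, which bears on its place among the 4 calls. HSPH1 was at 1.46 ± 0.34 (adjusted p = 0.0526). The summed level of the 29 genes was 9778 to 13870 CPM in SUC2 and 5011 to 9482 CPM in control, where control replicate 1 was the highest. Each of the 8 list genes called in SUC2 lost its call in 3 to 10 of 22 or 23 alternatives. The lists were chosen with earlier results of these data known, so their counts are descriptions.

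Many cell types of muscle express AP-1 genes, and the summed levels of markers of several differed between diets. The summed level of 11 immune cell markers ranged from 42.3 to 59.2 CPM in SUC2 and from 19.2 to 30.4 CPM in control. SUC2 thus lay above control without overlap, as for FOSL1, FOSL2, JUND and ATF3 and for 11.5% of all genes. The immune sum ranged from 27.3 to 37.4 CPM in SUC1 and from 24.4 to 25.9 CPM in SUC3, and overlapped with control in both. FOSL1, JUND and ATF3 did not overlap with control in SUC1. MRC1, a macrophage receptor, was at 1.38 ± 0.33 in SUC2 on the log2 scale (adjusted p = 0.0588). The summed level of the 10 muscle fibre genes was 145579 to 148793 CPM in SUC2, below the 150407 to 235362 CPM of control. That of 7 fibroblast markers was 468 to 823 CPM in control and 897 to 1872, 944 to 1103 and 1032 to 1470 CPM in SUC1, SUC2 and SUC3, above control without overlap in each. The 5 adipocyte markers also lay above control in each diet, with 44.7 to 52.2 CPM in control against 105 to 154, 62.3 to 173 and 66.8 to 247 CPM. Endothelial markers (6 genes) summed to 253 to 293 CPM in control and 342 to 692 CPM in SUC3, and overlapped with control in SUC1 and SUC2. The 4 satellite cell, 5 smooth muscle and pericyte, 4 nerve and 2 erythroid markers overlapped with control in every diet. No marker of these 8 lists or of the muscle fibre list was called in any comparison with control, none of them was at 0 in any diet, and their part in the levels of the AP-1 genes was not tested.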

How the data were processed

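Raw read counts per gene and FPKM values for 12 libraries were deposited by the authors in 1 table, per the file headers. The deposited FPKM values equalled counts divided by the gene length and the library total (largest relative difference 5.12e-15). Aligner, counter and strand use were not given in the sources used here. The mouse builds GRCm38 and mm10 appear per the submitters' processing notes, while the table's identifiers are of sheep. The deposited gene length entered FPKM only. Counts were filtered with filterByExpr, scaled by TMM and fitted with edgeR 4.0.16 in R 4.3.3 (quasi-likelihood, all 12 libraries, diet as the only factor, 8 residual degrees of freedom), with two-sided tests and Benjamini-Hochberg adjustment over 13319 genes at 0.05; the slope over succinate percent was fitted separately. Each standard error was |log2 fold change| divided by √F. Log2 CPM used a prior count of 2. DESeq2 1.42.0, limma 3.58.1 on log2(FPKM + 0.5, 0.1 or 1), RLE and upper-quartile scaling, other filters, pairwise fits, a replicate block and leaving out each library were alternatives. Within diets 0 pairs of libraries were identical. Floors cover counting error only. Of 18 same-numbered pairs of libraries from different diets, 5 had correlated deviations over 0.1 (-0.17 to 0.17), so the numbers were not treated as pairs. Members and lists were chosen with earlier results of these data known. All 9 members were named, and up to 4 genes per list by the smallest p of the joint test, with DNAJA1 added because it was called and some genes not reported here, plus the 5 genes most like FOS, ATF3 and FOSL1. Values of DUSP1, XIRP1, EIF4A1 and MRC1 are examples chosen after their values were seen. The sequences of the genes were not used here.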

Additional observations from a re-analysis of the deposited data

How the results depend on the processing

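The number of member genes called in SUC2 against control was 1, and it was 0 with a mean of at least 5 CPM (FOSL1 is then not tested), with the replicate block and without SUC2 replicate 2 and SUC3 replicate 1 together, 4 by DESeq2, 3 with only the diets compared, and 0 to 3 when single libraries were left out. In the joint test it was 0, against 1 without a filter, 5 by DESeq2 and 0 to 2 without single libraries. Between succinate diets it was 0, against 1 without a filter, 2 by DESeq2, 1 with only the diets compared and 0 to 1 without single libraries. All genes called between succinate diets were not counted under these alternatives, so these member counts have no share to be read against. In SUC1, SUC3 and the slope it stayed at 0 under every alternative run. With the replicate block FOSL1 in SUC2 had an adjusted p of 0.0538, and 12 of 36 best correlates had the same number.

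All genes called in SUC1 numbered 0, against 70 by DESeq2, 8 with only the diets compared, 1 without SUC2 replicate 2 and SUC3 replicate 1 together and 0 to 7 without single libraries. In SUC2 they numbered 191, against 841 by DESeq2, 122 with the replicate block and 0 to 332 without single libraries. In SUC3 it was 1, against 0 with upper-quartile factors, the replicate block or limma-trend at each pseudocount, 3 without a filter, 4 with a mean of at least 5 CPM, 241 by DESeq2, 2 without SUC2 replicate 2 and SUC3 replicate 1 together and 0 to 11 without single libraries. In the joint test it was 3, against 105 without a filter, 798 by DESeq2, 5 by limma-trend with a pseudocount of 1 and 0 to 85 without single libraries. For the slope it was 1, against 2 with a mean of at least 5 CPM, 121 by DESeq2, 0 with the replicate block, limma-trend or without SUC2 replicate 2 and SUC3 replicate 1 together, and 0 to 12 without single libraries.

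Signs turned only in comparisons where the member was not called. Without single libraries the SUC1 difference ranged from -0.10 to 1.55 for FOS, -0.42 to 2.06 for FOSB, -0.17 to 0.43 for FOSL2 and -0.54 to 1.62 for EGR1. The SUC2 difference of FOS ranged from -0.36 to 1.29. The SUC3 difference ranged from -2.87 to 0.14 for FOS, -2.14 to 2.43 for FOSB, -0.25 to 0.68 for JUNB, -0.14 to 0.70 for JUND and -2.33 to 1.56 for EGR1. Slopes ranged from -0.65 to 0.73 for FOSB, -0.0031 to 0.75 for FOSL1, -0.0074 to 0.47 for JUNB, -0.092 to 0.29 for JUND, -0.15 to 0.76 for ATF3 and -0.78 to 0.43 for EGR1. With the replicate block FOSB was at -0.032 in SUC1 and -0.011 in SUC3, with upper-quartile factors FOS was at -0.0055 in SUC2, and by limma-trend EGR1 was at 0.35, 0.43 and 0.27 in SUC1 (pseudocounts 0.5, 0.1 and 1). Without SUC2 replicate 2 and SUC3 replicate 1 together, an alternative chosen after seeing the data, EGR1 was at 0.28 in SUC3 and had a slope of 0.16. The cause of these changes was not tested. Depth limits FOSL1 most, at 4 to 93 counts per library.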
